A study of Mus musculus with 36 samples.

Results

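The genes described here encode 4 secreted trophic factors, Gdnf, Igf1, Hgf and Vegfa, and their transcripts were followed in muscle stem cells (MuSCs) sorted from mouse hindlimb. They were picked by gene symbol and are 4 of the 11337 genes of the deposited table. The choice was made with earlier results of these data known, in which Gdnf was among the genes most increased and Igf1 among those most decreased in old control mice. For these 4 genes the age differences of the control groups are therefore given as a description, with no test, while the running and Ccnd1 comparisons, and age among running mice, were tested. The age test among running mice used other mice, but it is not independent of that choice for Gdnf and Igf1. Its estimate of the spread also drew on the control mice of the wheel cohort. Other genes of their pathways were tested in all comparisons.

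The series held 36 RNA sequencing libraries, each from MuSCs of 1 male mouse, in 2 cohorts. In the wheel cohort, mice of 3 months (Y) or 18 months (O) lived for 3 weeks with a wheel that was either locked, giving Y(-Ex) with 6 mice and O(-Ex) with 7, or free to turn, giving Y(+Ex) with 3 and O(+Ex) with 5. Their MuSCs were sorted as viable cells positive for VCAM and negative for CD31, CD45 and Sca1, which are markers of endothelial, blood and stromal cells. In the Ccnd1 cohort every mouse, controls included, carried the tamoxifen-activated recombinase Pax7_CreERT2, which acts in cells that express Pax7, and the R26R_YFP reporter, and every mouse received tamoxifen. The genotypes at Ccnd1, the gene of cyclin D1, were Ccnd1_+/+ in Y(WT) with 3 mice and in O(WT) with 3, Ccnd1_+/flox in Y(HET) with 4, and Ccnd1_flox/flox in Y(KO) with 5. These ages were again 3 and 18 months, and viable YFP+ cells were sorted 6 weeks after tamoxifen. The strain was C57BL6 in both cohorts.

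MuSCs are the resident stem cells of skeletal muscle, which rest between the fibre and its sheath and divide after injury. GDNF is a survival factor for motor neurons that binds the co-receptor GFRα1 and signals through the kinase RET. IGF1 acts on the receptor IGF1R, with binding proteins that hold or release it, and drives muscle growth. HGF is made as an inactive precursor, is activated by proteases and binds the kinase MET on MuSCs, where it is known as a signal that brings them out of rest. VEGFA acts on the receptors FLT1 and KDR of endothelial cells, and low oxygen is its best known inducer. In bulk libraries, fewer cells of a type and less RNA per cell cannot be told apart.

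The values are read here as RPKM (reads scaled to transcript length and to library size), a unit that no source used here states. Levels of different genes are therefore compared only as an approximate description. The values held no zeros and summed to between 273837 and 350969 per library. All 12 MuSC markers were measured and their summed level was 2658 to 4244 RPKM, against 93 to 224 for 9 endothelial markers and 54.8 to 239 for the 7 haematopoietic markers that were measured of 12. The defining sort marker Vcam1 lay between 122 and 240 RPKM, Pax7 between 14.2 and 32.5, and the stromal marker Pdgfra between 0.289 and 1.26. Markers of other cell types were not all low: the sums were 594 to 1522 RPKM for 10 fibro-adipogenic markers, 41.5 to 686 for 8 measured myofibre markers, 162 to 460.4 for 8 pericyte and smooth muscle markers, 162 to 288 for 7 measured Schwann cell markers and 28.5 to 258 for 7 tenocyte markers. Ccnd1 itself averaged 11.7 ± 1.40 RPKM (SD, n = 3) in Y(WT), 7.18 ± 0.723 (n = 4) in Y(HET) and 2.71 ± 0.495 (n = 5) in Y(KO), in the order of the labels. The deposited values carry an adjustment: after each gene was centred, the log2 table had rank 29 where 36 libraries allow 35, so 6 directions among the libraries hold no variation. The share of a contrast that falls in those directions was 61.2% for O(WT) against Y(WT), 38.3% for Y(KO) against Y(WT), 35.1% for Y(HET) against Y(WT), 28.4% for O(-Ex) against Y(-Ex), 12% and 10.2% for running in old and young mice, and 0% for Y(KO) against Y(HET) and for O(+Ex) against Y(+Ex). The control groups of the 2 cohorts lie close together in this table and are not 2 independent measurements of age.

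A promoter window each of Gdnf and Vegfa is printed because these genes carry the largest age difference among runners and the running response described below, and so that a reader can see which known promoter letters each holds. Each is the 250 bases before a RefSeq transcription start (GRCm38.p6, the same assembly as mm10), 5′ to 3′ on the gene's strand, with capitals for matches to the motifs searched on both strands. Gdnf was read from chr15:7809798-7810047 (plus strand) and Vegfa from chr17:46032378-46032627 (minus strand).
Gdnf: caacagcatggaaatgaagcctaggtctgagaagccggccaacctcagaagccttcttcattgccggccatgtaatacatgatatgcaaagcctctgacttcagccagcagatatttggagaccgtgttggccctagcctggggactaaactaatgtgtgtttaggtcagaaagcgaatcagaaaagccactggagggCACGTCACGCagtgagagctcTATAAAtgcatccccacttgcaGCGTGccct
Vegfa: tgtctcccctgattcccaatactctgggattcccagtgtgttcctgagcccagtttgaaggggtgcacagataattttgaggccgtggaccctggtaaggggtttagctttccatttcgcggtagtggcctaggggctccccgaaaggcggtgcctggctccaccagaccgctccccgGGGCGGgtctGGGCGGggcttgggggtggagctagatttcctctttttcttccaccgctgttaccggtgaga
The motifs were the TATA box TATAAA, the GC box GGGCGG, the hypoxia element cores ACGTG and GCGTG and the cyclic AMP element half-site TGACG. They occur in 12.4%, 32.7%, 16.6%, 28.2% and 17.8% of 32851 RefSeq promoter windows of this length. The Gdnf window holds TATAAA from 31 to 26 bases before the start, GCGTG from 9 to 5 bases before it, and on the other strand ACGTG (52 to 48), TGACG (50 to 46) and GCGTG (47 to 43), which form an overlapping run. The Vegfa window holds GGGCGG from 72 to 67 and from 62 to 57 bases before the start, and no match to the other letters. RefSeq has a second window for each gene, not printed here. That of Gdnf (chr15:7813477-7813726) holds none of these letters. That of Vegfa (chr17:46025164-46025413), of which 218 bases are annotated exon, holds 1 GC box, 1 match to each hypoxia core and 1 to the cyclic AMP element half-site. The GC content of the printed Vegfa window is 59.2%, that of the printed Gdnf window 50.8%, and the median window has 52.4%. A match is a description of letters and not a binding site. Bases further upstream than these 250 were not searched, so a missing match says nothing about the rest of a promoter.

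In the mm10 annotation (GENCODE M21), Gdnf lies on chromosome 15 from 7810846 to 7837575 on the plus strand, Igf1 on chromosome 10 from 87858265 to 87937042 on the plus strand, Hgf on chromosome 5 from 16553495 to 16620152 on the plus strand, and Vegfa on chromosome 17 from 46016993 to 46032369 on the minus strand. The antisense gene Igf1os overlaps the first part of Igf1, and no source used here states the strand setting of the counting, so the Igf1 value may include antisense reads. The RPKM of a gene counts reads over all its exons and does not separate isoforms.

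Vegfa was the most abundant of the 4 transcripts, with a mean of 40.1 RPKM over the 36 libraries, above or level with 89.22% of the genes in the table. Gdnf followed at 22.4 RPKM, at 81.27%, and Igf1 at 8.77 RPKM, at 60.15%. Hgf was low, at 0.940 RPKM, at 4.19%; the reads behind this value are unknown. Between the lowest and the highest library the level differed 6.73-fold for both Gdnf and Igf1, 12.5-fold for Hgf and 2.15-fold for Vegfa. The plot of all libraries shows Gdnf and Hgf high and Igf1 low in every old group, and Vegfa lowest in the free-wheel group of each age.

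**Figure D1:**
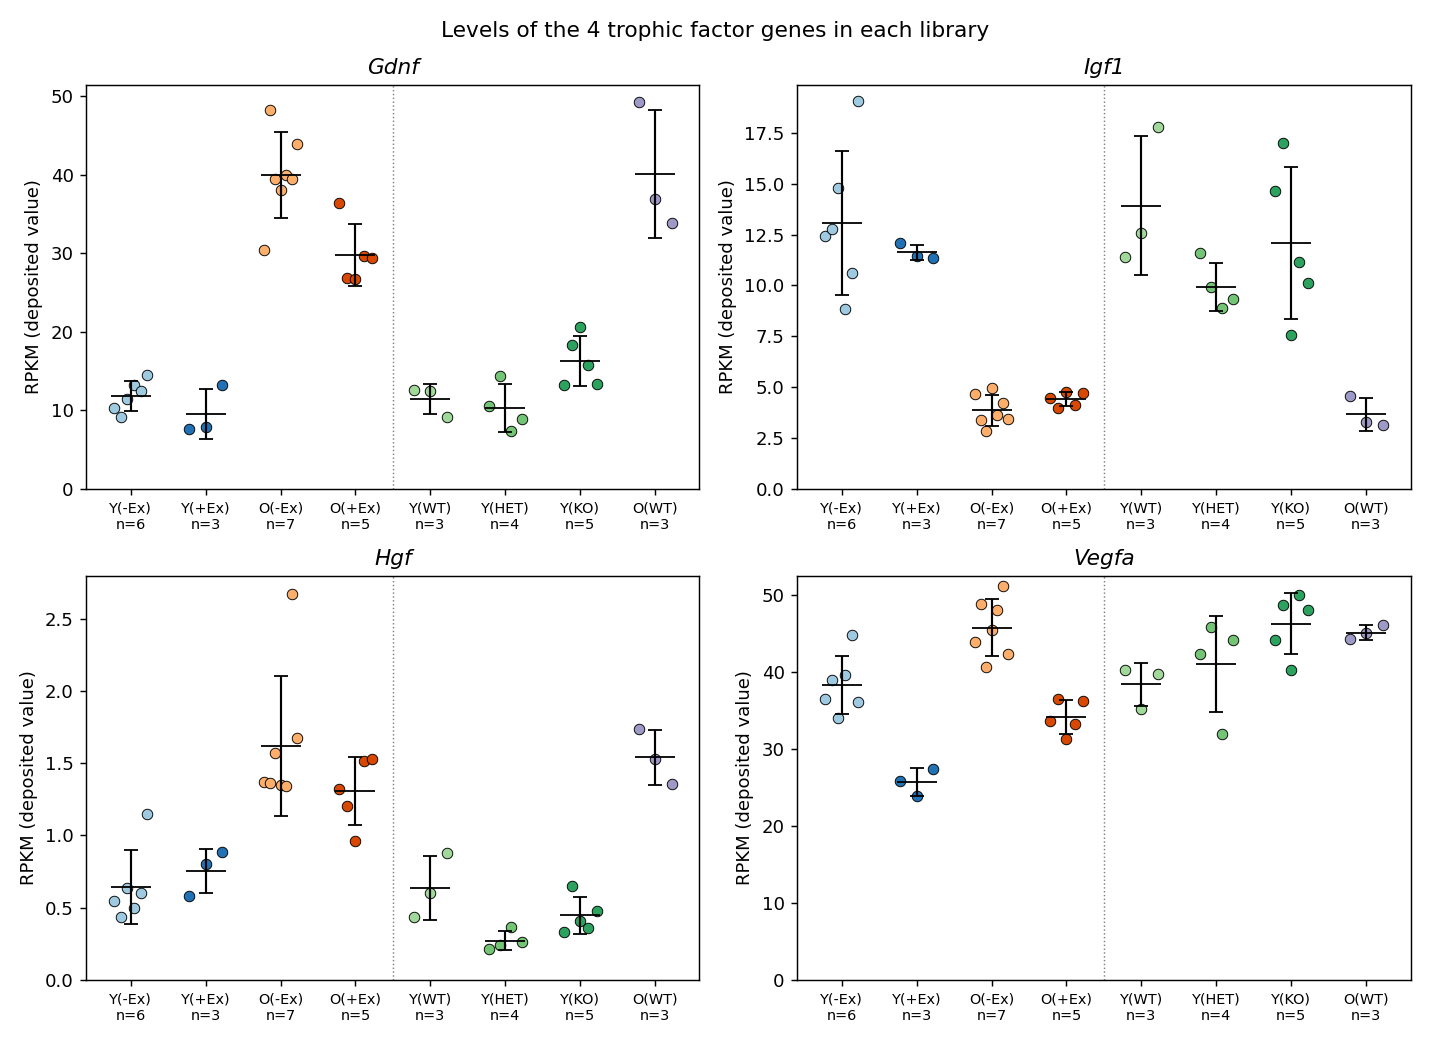
Deposited RPKM of Gdnf, Igf1, Hgf and Vegfa (y axes, linear, from 0) in each of the 36 libraries, by group (x axis); points are mice, bars the group mean and whiskers the SD. Gdnf lies between 26.7 and 49.3 RPKM in the 15 old libraries and between 7.32 and 20.6 in the 21 young ones, and Vegfa in Y(+Ex), between 23.8 and 27.4, lies below every other library.

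Gdnf was higher in old than in young MuSCs in every library. In the young locked group its level ran from 9.15 over a median of 11.9 to 14.5 RPKM, and in the old locked group from 30.4 over 39.4 to 48.3. The Y(WT) mice gave 12.6, 12.5 and 9.22 RPKM and the O(WT) mice 49.3, 36.9 and 33.9. No old library overlapped a young one. The mean was 11.8 ± 1.95 RPKM (SD, n = 6) in Y(-Ex) and 39.9 ± 5.48 (n = 7) in O(-Ex), a log2 difference of 1.76 ± 0.13 (SE) or 3.38-fold, and 1.80 ± 0.23 in the Ccnd1 cohort. The 2 contrasts called 38.3% and 15.8% of all genes, from which nothing is read for the members.

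Among mice with a free wheel, Gdnf was 7.60, 7.90 and 13.2 RPKM in the young and 36.4, 26.9, 26.7, 29.7 and 29.4 in the old. The lowest old value, 26.7, lay well above the highest young one, 13.2. Old runners were 3.20-fold higher (log2 1.68 ± 0.17, limma adjusted p = 5.64e-07), and all 4 members passed the test in this comparison, where 38.2% of all genes did. The share of genes called is high here, so a call alone sets a gene little apart. By p-value Gdnf stood at position 27 of 11337, Igf1 at 198, Vegfa at 1447 and Hgf at 3900. The calls and positions of Gdnf and Igf1 cannot be read apart from their choice by known age changes.

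Some markers of cell types were also called between the same runner groups, where 38.2% of all genes were called. In old runners 6 of 8 myofibre markers were called lower and 0 higher, with a summed level of 41.5 to 141 RPKM against 217 to 403 in young runners. Of 12 MuSC markers 6 were lower, Pax7 among them (log2 -0.68 ± 0.14, limma adjusted p = 0.000666), and 1 was higher. Of 9 endothelial markers 5 were higher and 0 lower, of 7 Schwann cell markers 3 were higher and 1 lower, of 8 pericyte and smooth muscle markers 4 were lower and 0 higher, of 7 tenocyte markers 1 was lower and 0 higher, and of 7 haematopoietic markers 0 were called, with 1 at an unadjusted p under 0.05. Beside the 38.2% of all genes, the shares called were 75% of myofibre, 58.3% of MuSC and 57.1% of Schwann cell markers. They were 55.6% of endothelial, 50% of pericyte and smooth muscle and 14.3% of tenocyte markers. The part of these cell types in the age differences of the 4 genes was not tested.

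Running left Gdnf without a called change. The old mice averaged 29.8 ± 3.95 RPKM (SD, n = 5) with a free wheel and 39.9 ± 5.48 with a locked one, and 4 of the 5 free-wheel libraries lay below the lowest locked one while O(+Ex) replicate 1, at 36.4, lay within the locked range. The log2 difference of -0.42 ± 0.14 did not pass the threshold (limma adjusted p = 0.0615). It was called in a fit of the compared groups alone (adjusted p = 0.0343) and in 2 of the 12 fits that each left out 1 library, without O(-Ex) replicate 1 and without O(+Ex) replicate 1. In young mice the difference was -0.34 ± 0.16 (adjusted p = 0.319), with Y(+Ex) replicate 3 at 13.2 RPKM beside 7.60 and 7.90 in the other libraries. It was -0.59 without that library (adjusted p = 0.0762), and -0.20 and -0.22 without Y(+Ex) replicates 1 and 2.

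Between Ccnd1 genotypes, Gdnf was 13.2, 18.3, 20.6, 15.8 and 13.4 RPKM in Y(KO), against 10.5, 14.4, 7.32 and 8.92 in Y(HET) and the Y(WT) values above. Every knockout library lay above the 3 wild-type ones, but the log2 difference of 0.50 ± 0.21 missed the threshold (limma adjusted p = 0.151; 6.99% of genes were called). Against Y(HET), whose replicate 2 lay within the knockout range, Gdnf was 1.61-fold higher (log2 0.68 ± 0.19, adjusted p = 0.0495; 6.04% of genes were called). This call stood at the threshold and was lost under 5 of the alternative settings and in 7 of 9 fits without 1 library, in which the adjusted p ran from 0.0131 to 0.16. In the same comparison 3 of 7 tenocyte markers were higher and 0 lower, with summed levels of 109 to 203 RPKM in Y(KO) and 71.6 to 88.7 in Y(HET), and their part in the Gdnf value was not tested. Y(HET) and Y(WT) differed by -0.18 ± 0.22 (adjusted p = 0.648), with a 95% interval from -0.65 to 0.28.

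Called genes of the GDNF family list, which did not include Ret or Gfra1 here, went in both directions with age among runners. Among 12 measured genes of the family's ligands, receptors and signalling, 1 was higher and 2 were lower in old than in young runners (25% called; 38.2% of all genes), with a median log2 difference of -0.13 against 0.01 for all genes. The 2 lower ones are genes that respond to kinase signalling: Dusp6, a phosphatase that ends ERK signalling, fell from 54.3 ± 5.40 RPKM (SD, n = 3) to 13.9 ± 1.83 (n = 5), 3.91-fold (log2 -1.97 ± 0.19, limma adjusted p = 4.91e-07), and the transcription factor gene Etv5 fell 1.83-fold (-0.87 ± 0.13). The higher one, the artemin co-receptor gene Gfra3, was at 0.101 ± 0.0327 and 0.695 ± 0.483 RPKM and is close to the lower end of the table. Ret, the signalling receptor, was 9.62 ± 1.57 RPKM in Y(-Ex) and 4.97 ± 1.09 in O(-Ex), 1.95-fold lower in the old (-0.96 ± 0.14, adjusted p = 1.41e-05). Its co-receptor gene Gfra1, the member of its family that binds GDNF, was 19.6 ± 2.04 and 15.1 ± 1.66 RPKM in those groups (-0.38 ± 0.11, adjusted p = 0.00768). Ret and Gfra1 were called neither between old and young runners nor between O(WT) and Y(WT). In locked mice 5 of the 12 listed genes were called lower and 0 higher with age (41.7% called), near the 38.3% of all genes, with a median of -0.34; Gfra1 stands outside the naming rule and was named after its values were seen.

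Between Ccnd1 genotypes, 1 of the 12 genes was called in Y(KO) against Y(WT) (8.33%; 6.99% of all genes), 2 in Y(HET) against Y(WT) (16.7%; 5.39%) and 2 in Y(KO) against Y(HET) (16.7%; 6.04%). Gfra2, the neurturin co-receptor gene, was 2.48 ± 0.383 RPKM (SD, n = 4) in Y(HET) against 1.19 ± 0.294 (n = 3) in Y(WT) and 1.19 ± 0.213 (n = 5) in Y(KO). It was 2.11-fold higher in Y(HET) than in Y(WT) (log2 1.08 ± 0.21, limma adjusted p = 0.0136; 5.39% of genes were called) and 2.09-fold lower in Y(KO) than in Y(HET) (adjusted p = 0.00551). Other settings lost these calls in 3 of 14 and 2 of 16. Gfra3 was higher than in Y(WT) in both, by log2 2.28 ± 0.50 in Y(HET) and 1.97 ± 0.48 in Y(KO) (adjusted p = 0.0224 and 0.0289); the calls were lost in 6 of 13 and 9 of 14 other settings. These comparisons share the Y(WT) libraries. Gfra4, the persephin co-receptor gene, was 1.70-fold higher in Y(KO) than in Y(HET) (adjusted p = 0.0498), a call lost in all 15 other settings. With a free wheel, limma called 0 of the 12 genes in old mice, where 7.39% of all genes were called. Of the 12, 3 had an unadjusted p under 0.05. In young mice Dusp6 alone was called (8.33%, against 1.12% of all genes), 1.88-fold higher (0.91 ± 0.18, limma adjusted p = 0.0168), a call lost in 4 of 16 other settings.

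Igf1 ran the opposite way to Gdnf with age. Its level in the young locked group went from 8.85 over a median of 12.6 to 19.0 RPKM, and in the old locked group from 2.83 over 3.65 to 4.95. Y(WT) gave 11.4, 12.6 and 17.8 RPKM and O(WT) 4.58, 3.30 and 3.12. The lowest of the 21 young libraries, Y(KO) replicate 3 at 7.57, lay above the highest old one, O(-Ex) replicate 4 at 4.95. The old locked mean of 3.88 ± 0.760 RPKM (SD, n = 7) against 13.1 ± 3.54 (n = 6) gives a log2 difference of -1.73 ± 0.14, and that of the Ccnd1 cohort was -1.92 ± 0.25.

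In the running mice Igf1 was 12.1, 11.5 and 11.4 RPKM in the young and 4.47, 3.96, 4.78, 4.14 and 4.74 in the old. The spread within both groups was small beside the gap. Old runners were 2.64-fold lower (log2 -1.40 ± 0.19, limma adjusted p = 9.83e-06). Running gave no called change in Igf1 at either age: the difference was 0.21 ± 0.15 in old mice (adjusted p = 0.427; 95% interval -0.10 to 0.52) and -0.13 ± 0.18 in young mice (adjusted p = 0.785; -0.50 to 0.25). Its means in Y(HET), 9.94 ± 1.17 RPKM, and Y(KO), 12.1 ± 3.72, did not pass the test against the 13.9 ± 3.40 of Y(WT), with differences of -0.47 ± 0.24 (adjusted p = 0.254) and -0.23 ± 0.23 (adjusted p = 0.556).

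More genes of the IGF list were lower than higher in old runners. Of its 25 measured genes 13 fell and 3 rose (64% called, against 38.2% of all genes). Their median log2 difference was -0.42, against 0.01 over all genes. Beside IGF ligands, receptors, binding proteins and substrates, the list holds signalling genes such as Ghr, Akt1, Foxo1, Stat5a and Stat5b. The counts are therefore not of ligands, receptors and binding proteins alone. In locked mice the shift was smaller, with 8 lower and 4 higher (48% called; 38.3% of all genes) and a median of -0.08, and in the Ccnd1 cohort 3 were lower and 1 higher (16%; 15.8%), with a median of -0.05. Stat5b, a factor that carries growth hormone signals to Igf1 in liver, fell from 20.1 ± 3.58 (SD, n = 3) to 9.91 ± 1.12 RPKM (n = 5), 2.02-fold (-1.02 ± 0.14, limma adjusted p = 1.07e-05). Igfbp3, whose product binds IGF1 in serum, fell 2.43-fold (-1.28 ± 0.21, adjusted p = 9.91e-05). The binding protein genes that rose were Igfbp4, 1.66-fold (0.73 ± 0.23, adjusted p = 0.0151), and Igfbp7, a weak IGF binder, 1.30-fold (0.38 ± 0.12, adjusted p = 0.0145). Other settings lost these 2 calls in 2 and 4 of 15. The remaining riser was Igf2, the other ligand, which is outside the naming rule for this comparison. Igf2 was 14.2 ± 1.48 RPKM in young and 18.4 ± 2.16 in old runners, and in locked mice 12.6 ± 2.44 and 20.5 ± 2.94, 1.64-fold higher in the old (0.71 ± 0.11, adjusted p = 4.12e-05). In RPKM, Igf2 thus lay far above Igf1 in old MuSCs (20.5 beside 3.88 in O(-Ex)) and close to it in young locked ones (12.6 beside 13.1). The receptor transcript Igf1r was 5.82 ± 1.27 RPKM in Y(-Ex) and 6.03 ± 1.13 in O(-Ex), and was called in no comparison.

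With running, 1 of the 25 genes of the IGF list rose and 2 fell in old mice (12% called, against 7.39% of all genes). In young mice, where 1.12% of all genes were called, limma called 0 of 25, and 4 had an unadjusted p under 0.05. Igfbp7 rose from 109 ± 13.4 (SD, n = 7) to 156.3 ± 11.96 RPKM (n = 5), 1.44-fold (0.53 ± 0.10, limma adjusted p = 0.00309). Stc1, an inhibitor of the protease that frees IGF from its binding proteins, fell 2.56-fold (-1.36 ± 0.32, adjusted p = 0.0157), and the insulin receptor substrate gene Irs2 fell 1.24-fold (-0.32 ± 0.09, adjusted p = 0.0324, a call lost in 10 of 19 other settings). Y(KO) against Y(WT) called 1 of 25 (4%, against 6.99% of all genes), Stat5b, which was lower (-0.41 ± 0.08, limma adjusted p = 0.0147). Y(HET) against Y(WT) called 3, all lower (12%, against 5.39%). Among them were Akt2 (-0.52 ± 0.12, adjusted p = 0.0242) and Igf2bp2 (-0.93 ± 0.21, adjusted p = 0.0261), whose product binds RNA and not IGF. In Y(KO) against Y(HET) Igfbp6 (adjusted p = 0.0258) and Igf2bp2 (adjusted p = 0.0387) were higher (8%, against 6.04%). Other settings lost Stat5b in 4 of 15, Akt2 and Igf2bp2 against Y(WT) in 6 and 3 of 14, and the last 2 in 7 and 9 of 16.

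Hgf was low in young MuSCs and higher in old ones. In young locked mice it ran from 0.432 over a median of 0.573 to 1.15 RPKM, and in old locked mice from 1.34 over 1.37 to 2.68. The highest value in each of these groups stood apart from the rest, 1.15 in Y(-Ex) replicate 6 and 2.68 in O(-Ex) replicate 6. No old locked library overlapped a young one, and the log2 difference was 1.37 ± 0.22, or 1.55 and 1.24 when the young or the old of those 2 libraries was left out. Y(WT) gave 0.433, 0.599 and 0.876 RPKM and O(WT) 1.74, 1.53 and 1.36, a log2 difference of 1.33 ± 0.34.

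In running mice Hgf was 0.584, 0.800 and 0.883 RPKM in the young and 1.32, 1.21, 0.964, 1.52 and 1.53 in the old. The groups did not overlap, with 0.883 beside 0.964 as the nearest values. Old runners were 1.73-fold higher (log2 0.79 ± 0.29, limma adjusted p = 0.0341), a call that was lost in 5 of 8 fits without 1 library, in which the adjusted p ran from 0.0235 to 0.162. Running itself gave -0.29 ± 0.23 in old mice (adjusted p = 0.489) and 0.29 ± 0.28 in young mice (adjusted p = 0.664).

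Y(HET) had the lowest mean Hgf of the 8 groups, with 0.215, 0.240, 0.363 and 0.264 RPKM in its libraries, all below the lowest Y(WT) mouse at 0.433. Y(KO) lay between, at 0.332, 0.649, 0.410, 0.361 and 0.480, and overlapped both. Y(HET) was 2.30-fold lower than Y(WT) (log2 -1.20 ± 0.31, limma adjusted p = 0.0423; 5.39% of genes were called), while Y(KO) did not pass the test against Y(WT) (-0.49 ± 0.30, adjusted p = 0.319) or against Y(HET) (0.71 ± 0.28, adjusted p = 0.138). The Y(HET) call was lost in 5 of 7 fits without 1 library and under 5 alternative settings. The Ccnd1 cohort was sorted on YFP after recombination in Pax7-expressing cells. Stromal cells are a known source of HGF. The summed level of the 10 fibro-adipogenic markers ran from 594 to 693 RPKM in Y(HET), from 806 to 1439 in Y(WT) and from 802 to 1001 in Y(KO). Of those markers 1 of 10 was called lower and 0 higher in Y(HET) against Y(WT) (10%, against 5.39% of all genes). Their median log2 difference was -0.18, against -0.06 over all genes. The part of these markers in the Hgf value was not tested.

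Met, the HGF receptor gene, was also higher in old MuSCs of the wheel cohort, and was not called between O(WT) and Y(WT). It was 11.1 ± 0.819 RPKM (SD, n = 3) in young and 21.04 ± 2.02 (n = 5) in old runners, 1.90-fold higher (log2 0.92 ± 0.15, limma adjusted p = 9.56e-05), and 1.37-fold higher in old locked mice (0.46 ± 0.12, adjusted p = 0.00398). Of 15 measured genes of the HGF list, 3 rose and 3 fell in old runners (40% called, against 38.2% of all genes), with a median log2 difference of 0.18. Beside the receptor, activators and inhibitors, this list holds more general genes such as Gab1, Mtor, Rptor and Rps6. The activator and inhibitor genes Hgfac, Hpn, St14 and Spint1 were not measured. Cd44, a surface protein that can present HGF to MET, rose 2.01-fold (1.01 ± 0.14, adjusted p = 1.47e-05), while Cblb, a ubiquitin ligase that acts on activated receptors, and the heparan sulphate carrier gene Sdc3 fell 1.89-fold and 1.40-fold (adjusted p = 0.000181 and 0.00202). The called changes thus went in both directions. Running called 1 of 15 in old mice (6.67%, against 7.39% of all genes). It was Sdc4, 1.25-fold lower (-0.32 ± 0.10, limma adjusted p = 0.0466, a call lost in 12 of 19 other settings). In young mice, where 1.12% of all genes were called, limma called 0 of 15, and 4 had an unadjusted p under 0.05. By limma the genotype comparisons called 0 of 15 each. Of all genes, 6.99% were called in Y(KO) against Y(WT), 5.39% in Y(HET) against Y(WT) and 6.04% in Y(KO) against Y(HET). In that order 2, 4 and 2 of the 15 had an unadjusted p under 0.05. In the fibro-adipogenic list, 4 of 10 markers, among them Dcn and Ly6a, were called higher in old runners and 0 lower. That share of 40% lay near the 38.2% of all genes. The summed levels were 922 to 1522 RPKM in old and 1014 to 1209 in young runners. The part of these cells in the age difference of Hgf was not tested.

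Vegfa was the member that changed with running, and it fell in both ages. In old mice the level was 33.6, 36.5, 31.3, 33.2 and 36.2 RPKM with a free wheel, and ran from 40.6 over a median of 45.4 to 51.1 with a locked one. All 5 runners lay below the lowest of 7 locked mice. Vegfa fell 1.34-fold, from 45.8 ± 3.76 (SD, n = 7) to 34.2 ± 2.19 RPKM (n = 5), log2 -0.42 ± 0.07 (limma adjusted p = 0.00247). It was the only member called, where 7.39% of all genes were, and stood at position 34 of 11337 by p-value and 7 among genes that were lower. In old runners 3 of 8 pericyte and smooth muscle markers were also lower and 1 higher, with a summed level of 201 to 259 RPKM against 162 to 218, and 2 of 7 tenocyte markers were lower; their part in the Vegfa value was not tested.

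In young mice Vegfa was 25.8, 23.8 and 27.4 RPKM with a free wheel, and ran from 33.9 over a median of 37.7 to 44.8 with a locked one. Again no library overlapped. Vegfa fell 1.49-fold, from 38.3 ± 3.77 (SD, n = 6) to 25.7 ± 1.78 (n = 3), log2 -0.57 ± 0.09 (limma adjusted p = 0.00388). It was again the only member called, where 1.12% of all genes were, and stood at position 4 by p-value. In young runners 1 of 7 Schwann cell markers, Mbp, was the only marker of another cell type to be called, in the lower direction. Without Y(+Ex) replicate 2, the lowest of the 3, the difference was -0.52 and the adjusted p 0.0516. No difference in the fall between ages was called by the interaction term (0.15 ± 0.11, adjusted p = 0.766), whose 95% interval ran from -0.08 to 0.39. For Gdnf, Igf1 and Hgf the same term gave adjusted p-values of 0.955, 0.747 and 0.712, in a comparison that called 0.00882% of genes.

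Old MuSCs held somewhat more Vegfa than young ones at the same wheel condition. Among runners the groups did not overlap and the old were 1.33-fold higher (log2 0.41 ± 0.09, limma adjusted p = 0.0012). In locked mice, where the comparison is a description, the difference was 0.26 ± 0.07 and 4 of 7 old libraries lay above the highest young one. The O(WT) mice, at 44.2, 44.98 and 46.1 RPKM, lay above the Y(WT) mice at 40.2, 35.1 and 39.8.

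Y(KO) had the highest mean Vegfa of the 8 groups, with 44.2, 48.6, 40.3, 49.97 and 48.1 RPKM, and Y(HET) had 42.3, 45.9, 32.0 and 44.2. Every Y(KO) library lay above every Y(WT) one, the nearest being 40.3 and 40.2. The log2 difference of 0.27 ± 0.11 missed the threshold (limma adjusted p = 0.15; 6.99% of genes were called), as did Y(HET) against Y(WT) (0.09 ± 0.12, adjusted p = 0.691) and Y(KO) against Y(HET) (0.18 ± 0.10, adjusted p = 0.316).

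**Figure D2:**
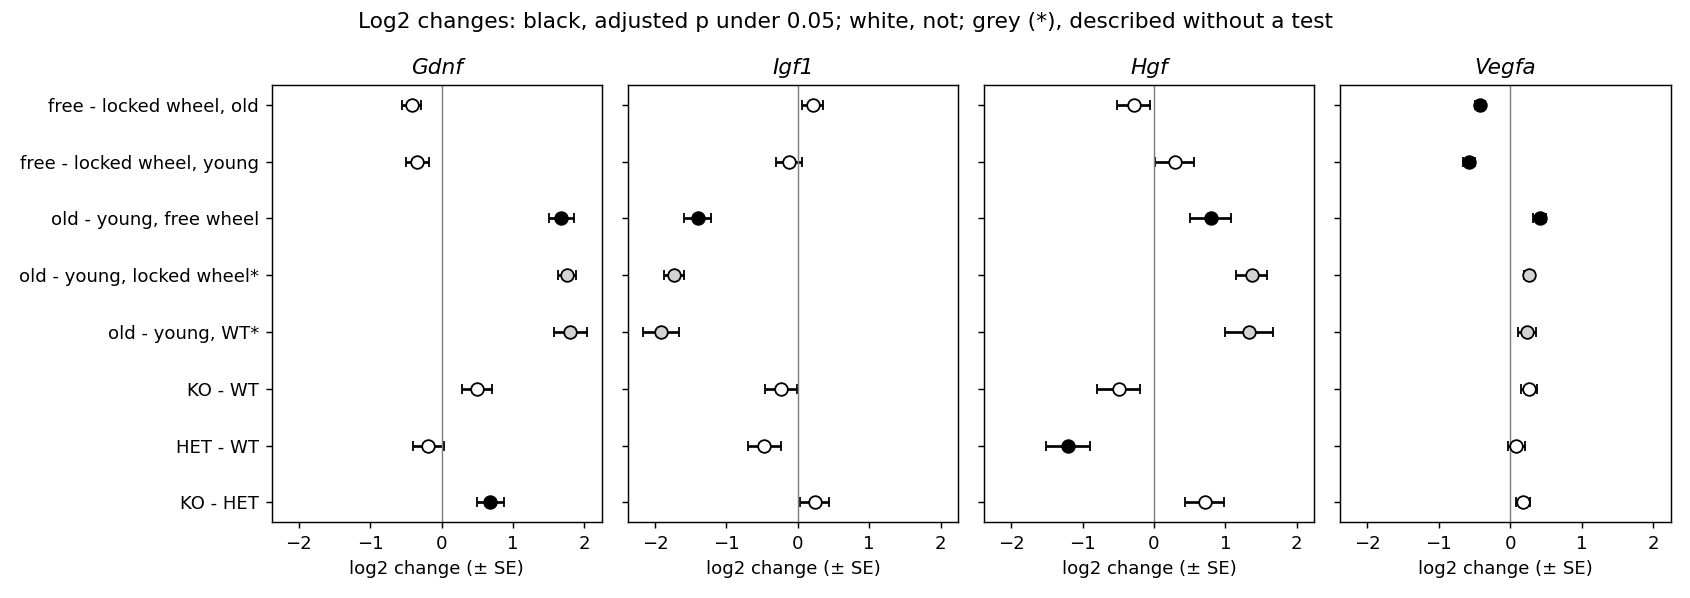
Log2 changes (x axes, ± SE) of Gdnf, Igf1, Hgf and Vegfa in each comparison (y axis); black points passed the limma adjusted p of 0.05, white points did not, and grey points marked * are age differences of control groups given without a test. Only Vegfa has black points for running, at -0.42 in old and -0.57 in young mice.

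The authors' deposited table gives a correlation coefficient of each gene with Ccnd1, and that of Vegfa, -0.793, was exceeded downwards by 1 of 11337 genes, Grk6, which was named after its value was seen. In the authors' deposited table the coefficients of Hgf, Igf1 and Gdnf were 0.303, -0.160 and 0.000521. No source used here says which libraries entered the authors' coefficient. Across the groups, Ccnd1 was 17.1 ± 2.25 RPKM (SD, n = 3) in Y(+Ex) and 18.3 ± 3.69 (n = 5) in O(+Ex), where Vegfa was lowest, and 2.71 ± 0.495 (n = 5) in Y(KO), where Vegfa was highest. After the group means were removed, Pearson's r of the log2 values of Vegfa and Ccnd1 over the 36 libraries was -0.12, a description over libraries that share their scaling. This value averages unlike groups. In O(+Ex), Vegfa was 36.2, 36.5, 33.6, 33.2 and 31.3 RPKM in the libraries with 14.9, 15.1, 18.1, 19.6 and 23.9 RPKM of Ccnd1, so it was lower where Ccnd1 was higher. In O(-Ex), the lowest and the highest Vegfa, 40.6 and 51.1 RPKM, stood at 6.11 and 7.39 RPKM of Ccnd1, and no such order was seen. From the lowest to the highest Ccnd1, Vegfa was 40.3, 48.6, 49.97, 48.1 and 44.2 RPKM in Y(KO). In Y(-Ex) it was 38.9, 39.5, 36.1, 36.4, 44.8 and 33.9 RPKM. Neither group showed the order of O(+Ex), which was singled out after its values were seen.

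**Figure D3:**
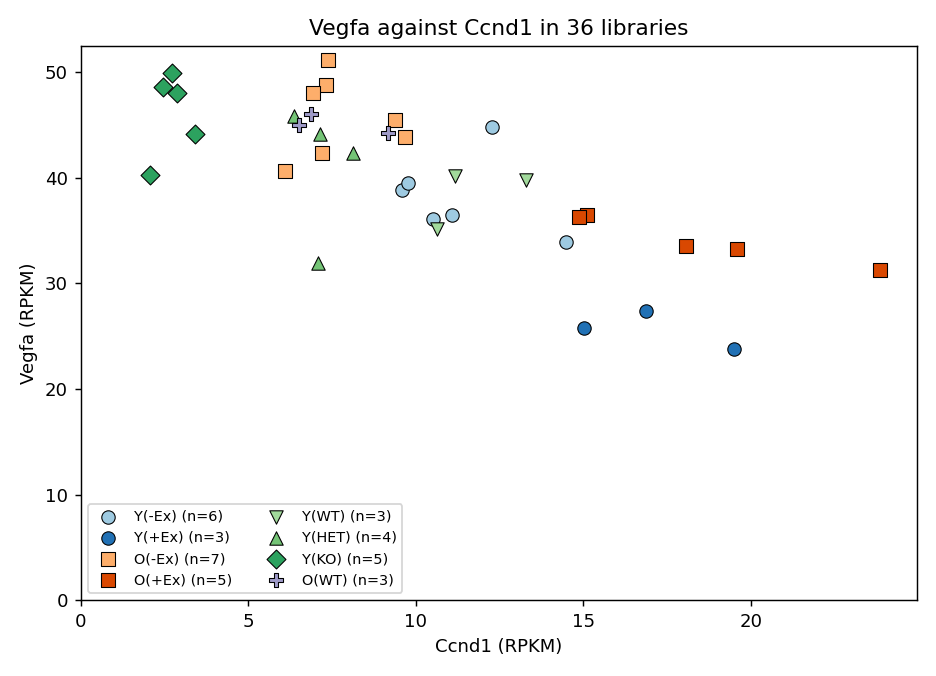
Vegfa (y axis, RPKM) against Ccnd1 (x axis, RPKM), both from 0, 1 point per library, with colour and shape for the 8 groups. The 8 free-wheel libraries lie at high Ccnd1 and low Vegfa and the 5 Y(KO) libraries at low Ccnd1 and high Vegfa. In O(+Ex), singled out after its values were seen, the points fall from 36.5 to 31.3 RPKM of Vegfa as Ccnd1 rises. In O(-Ex), Y(-Ex) and Y(KO) they show no such order.

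While Vegfa fell, related ligand and receptor transcripts rose in old runners. Of 8 measured genes, 3 rose and 0 fell (37.5% called; 7.39% of all genes), with a median log2 difference of 0.25 against -0.01 over all genes. Pgf, a ligand of FLT1, rose from 4.50 ± 0.981 (SD, n = 7) to 8.62 ± 1.65 RPKM (n = 5), 1.93-fold (0.95 ± 0.18, limma adjusted p = 0.00397). Nrp1, a co-receptor, rose 1.37-fold (0.46 ± 0.11, adjusted p = 0.0201, a call lost in 3 of 19 other settings). The VEGFA receptor gene Kdr, outside the naming rule and named because it completes the count, rose 1.90-fold from 8.71 ± 2.99 to 16.7 ± 6.22 RPKM (0.93 ± 0.27, adjusted p = 0.0432). Kdr is also one of the 9 endothelial markers, of which 3 rose and 0 fell in old runners (Kdr, Cldn5 and Egfl7), with a summed level of 165 to 224 RPKM against 109 to 170 in old locked mice; Pecam1 and Cdh5 were not called (adjusted p = 0.323 and 0.519). The part of endothelial RNA in the rise of these genes was not tested. Without O(+Ex) replicate 3 only 1 of the 8 genes was called, and Pgf kept its call in each of 19 other settings. In young mice, where 1.12% of all genes were called, limma called 0 of the 8 genes, with 2 at an unadjusted p under 0.05. It called 0 of the 9 endothelial markers, with 0 at that level. The endothelial sum there was 101 to 121 RPKM in runners and 93 to 143 in locked mice.

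Pgf was higher in other comparisons as well. It was 2.56-fold higher in old than in young runners (log2 1.35 ± 0.22, limma adjusted p = 8.05e-05), where 4 of the 8 genes rose and 0 fell (50% called; 38.2% of all genes), and 5 of 9 endothelial markers rose too. Vegfc, a ligand known for lymphatic vessels, rose 1.53-fold there (0.61 ± 0.14, adjusted p = 0.002). Against Y(WT), Pgf was 1.76-fold higher in Y(KO) (adjusted p = 0.042) and 1.79-fold higher in Y(HET) (adjusted p = 0.0472), comparisons that share their controls, and either call was lost in 11 of the other settings. In Y(HET) Nrp2 was also higher, by 0.56 ± 0.15, and the receptor gene Flt4 lower (-0.89 ± 0.24), calls lost in 10 and 12 of 14 other settings.

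The list of genes known to respond to low oxygen held 1 called gene for running at each age. Of 33 measured hypoxia factors and targets, 1 fell and 0 rose in old runners, and 1 rose and 0 fell in young runners (3.03% called in each, against 7.39% and 1.12% of all genes), with medians of -0.06 and -0.01. At each age 8 of the 33 had an unadjusted p under 0.05. The 1 that fell in old mice was Egln1, an oxygen sensor that marks the hypoxia factors for removal (log2 -0.34 ± 0.09, limma adjusted p = 0.0257, a call lost in 3 of 19 other settings). In young runners the vasodilator peptide gene Adm rose from 9.57 ± 1.33 (SD, n = 6) to 16.2 ± 1.93 RPKM (n = 3), 1.70-fold (0.77 ± 0.13, adjusted p = 0.0082), opposite to Vegfa. Its call was lost in 3 of 16 other settings. With age in runners 3 of 33 rose, among them Ndrg1 (0.84 ± 0.11) and the glycolytic gene Pgam1 (0.49 ± 0.10), and 6 fell, among them the hypoxia factor gene Epas1 (-0.88 ± 0.19) and the stress gene Ddit4 (-1.79 ± 0.41), so 27.3% were called against 38.2% of all genes.

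**Figure D4:**
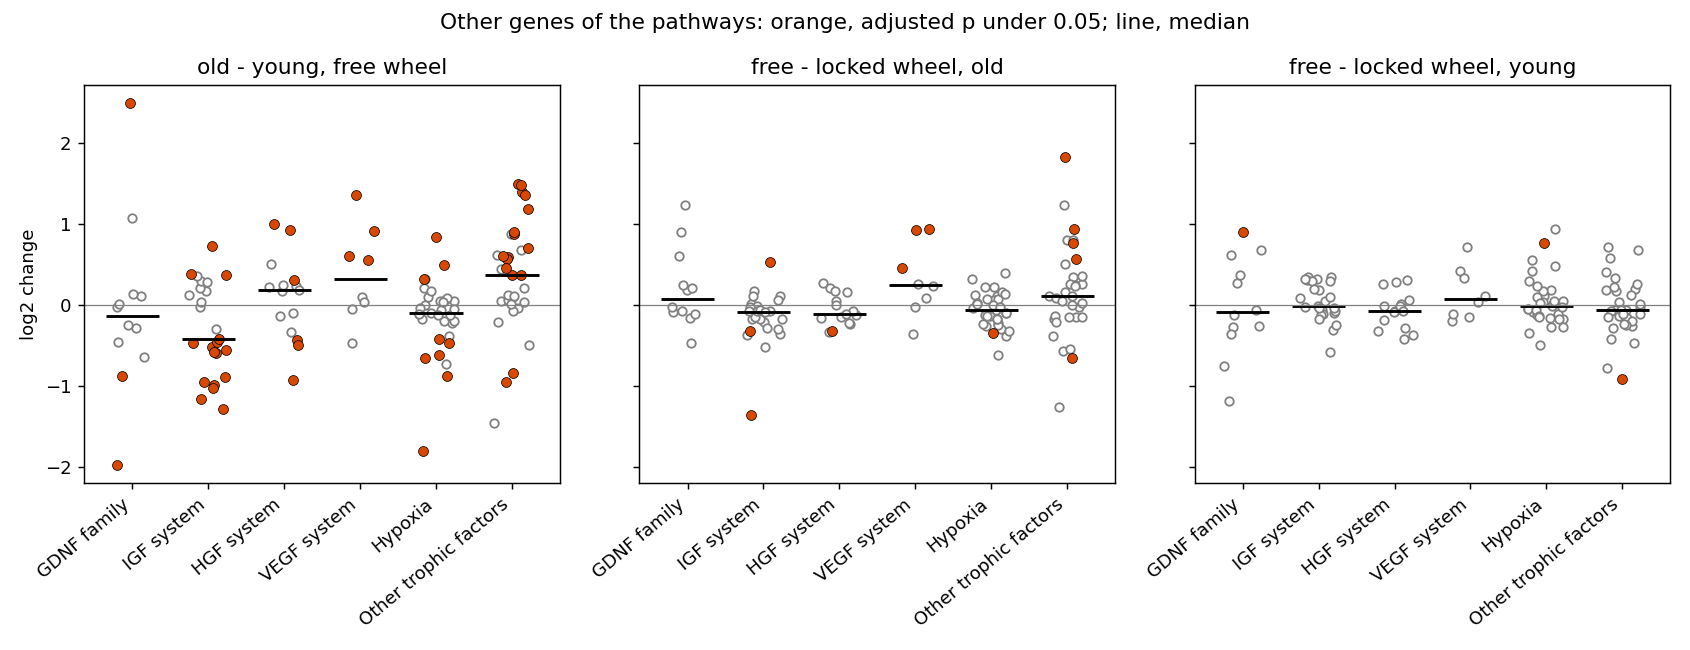
Log2 change (shared y axis) of the measured genes in 6 lists (x axes), with a panel each for old against young runners, running in old mice and running in young mice; each point is 1 gene, orange where the limma adjusted p is under 0.05, and lines are list medians. The IGF list lies mostly below 0 for old against young runners (13 lower, 3 higher of 25) and the hypoxia medians for running, -0.06 and -0.01, lie near 0.

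Among 33 other measured trophic factor genes, 14 rose and 2 fell in old against young runners (48.5% called; 38.2% of all genes), with a median log2 difference of 0.38 against 0.01 over all genes. Ntf3, the neurotrophin-3 gene, rose 1.63-fold (0.71 ± 0.10, limma adjusted p = 2.9e-05) and Pdgfa 1.87-fold (0.91 ± 0.15, adjusted p = 7.78e-05), while the cytokine gene Lif fell 1.92-fold (adjusted p = 0.00166) and the EGF family gene Ereg 1.78-fold (adjusted p = 0.0176). Ereg lost its call in 3 of 15 other settings. With running, 4 rose and 1 fell in old mice (15.2% called; 7.39% of all genes). Pdgfb, a ligand that recruits pericytes, rose from 0.987 ± 0.441 (SD, n = 7) to 3.26 ± 0.618 RPKM (n = 5), 3.57-fold (1.83 ± 0.31, adjusted p = 0.00247), and the cytokine gene Il6 fell 1.58-fold (-0.66 ± 0.15, adjusted p = 0.0128). In young runners the single call was Fgf2, a growth factor for MuSCs, which fell 1.88-fold (-0.91 ± 0.22, adjusted p = 0.0442, a call lost in 10 of 16 other settings). Against Y(WT), 4 of the 33 rose in Y(KO) and 0 fell (12.1% called; 6.99% of all genes), and 6 rose and 1, Angpt1, fell in Y(HET) (21.2%; 5.39%), with Angptl4 and Il6 first among the higher ones in both. These totals of 4 and 7 called genes depended on single libraries: without Y(WT) replicate 2 they were 0 and 1, without Y(WT) replicate 3 they were 0 and 4, and with the replicate block 0 and 1. Without Y(KO) replicates 1, 3 or 5 the first was 2, and without Y(HET) replicates 1, 2 or 4 the second was 3. This list shares Igf2, Nrtn, Vegfb, Vegfc and Pgf with the lists above.

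The members' levels followed different orders over the 8 groups. For Gdnf the means rose from Y(+Ex) over Y(HET), Y(WT), Y(-Ex) and Y(KO) to O(+Ex), O(-Ex) and O(WT), and the only neighbours in that order whose libraries did not overlap were Y(KO) and O(+Ex). For Igf1 the order began with O(WT), O(-Ex) and O(+Ex), and the single gap was between O(+Ex) and Y(HET). For Hgf it ran from Y(HET), Y(KO), Y(WT), Y(-Ex) and Y(+Ex) to O(+Ex), O(WT) and O(-Ex), with the gap between Y(+Ex) and O(+Ex). For Vegfa it began with Y(+Ex) and O(+Ex), whose libraries did not overlap, and ended with O(WT), O(-Ex) and Y(KO), whose neighbours all overlapped. Within groups the members hardly moved together: over the 36 libraries, Pearson's r of log2 values after removal of group means ran from -0.09 for Gdnf and Igf1 to 0.37 for Igf1 and Hgf, as a description.

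By Pearson's r of log2 values over the 36 libraries, which fall into young and old groups and share their scaling, the genes most like Gdnf were Clmp (0.96), Rnf217 (0.96) and Gclc (0.93), a gene of glutathione synthesis. Within groups these fell to 0.72, 0.53 and 0.57. Igf1 was most like Tubb4a (0.91), Filip1l (0.90) and Mbnl1 (0.89), which gave 0.26, 0.48 and 0.44 within groups. Hgf was most like Tmem176a (0.91), Coch (0.88) and Tmem176b (0.86), with 0.28, 0.30 and 0.11 within groups. Vegfa was most like Stk40 (0.87), Sub1 (0.86) and Trak1 (0.85), and here 0.62, 0.58 and 0.62 remained within groups.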

How the data were processed

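RNA was extracted from sorted MuSCs with Nucleospin RNA XS columns, primed with oligo(dT) and sequenced as paired reads, 1 library per mouse, per the labels' protocols. Per the submitters' processing notes, Trim Galore, STAR, featureCounts (Subread) and the build mm10 were used; no source used here gives versions or the strand setting. The authors deposited 1 table of 11337 genes by 36 libraries, read here as RPKM, since values times exon length summed to 958293 to 1204774 per library (11335 identifiers matched GENCODE M21), and a score, the authors' correlation coefficient with Ccnd1. The table gives no counts, so the depth per library is unknown.

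Log2 RPKM, with no pseudocount, was fitted with limma 3.58.1 (statmod 1.5.0, R 4.3.3; eBayes with trend and robust) within each cohort, 1 mean per group, with Benjamini-Hochberg adjustment over all 11337 genes and a threshold of 0.05. Other steps used Python 3.11.15. The script was tested on simulated data. Mice are the replicates, and the labels do not pair them by number. Group counts, lists and alternatives are as in the text, and the closing section gives the effect of the alternatives: log2(RPKM + 1), median-of-ratios scaling, a filter on a mean of at least 1 RPKM, other sets of libraries, lowered degrees of freedom, a replicate block and each library left out.

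The members and gene lists were chosen with earlier results of these data known. Named were the 4 members, up to 2 called genes of each list in each direction by lowest p, and for each member the 3 genes with the highest r among those with a mean of at least 1 RPKM, without clone names; others are marked. RefSeq promoter windows were matched by symbol for all 4 members, and the windows of 2 are printed.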

Additional observations from a re-analysis of the deposited data

Results flagged for a closer look

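Hgf in Y(-Ex) replicate 6 was 1.15 RPKM, and the other 5 young locked mice lay between 0.432 and 0.639; its gap to the nearest was 0.71 of the group's range, above Dixon's critical value of 0.625. Hgf in O(-Ex) replicate 6 was 2.68 RPKM, and the other 6 old locked mice lay between 1.34 and 1.67, a gap of 0.751 of the range against 0.568. Both stand in the least abundant of the 4 genes. These were 2 flags in 20 groups tested over the 4 members, and chance flags about 1 in 20. Without these libraries in turn, the age difference of Hgf in locked mice was 1.55 and 1.24 on the log2 scale, beside 1.37 with all.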

How the results depend on the processing

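Over the 4 members, 448 of the recomputed tested values kept their direction and side of the threshold, 29 lost the call, 3 gained it and 1 reversed. Vegfa in old runners and Gdnf, Igf1 and Vegfa in old against young runners kept their calls under every setting run. Gdnf in old runners was called with the compared groups alone (-0.42, adjusted p = 0.0343); with 1 library left out it ran from -0.49 to -0.37, and its wheel difference between ages from -0.22 to 0.18, reversed without Y(+Ex) replicate 3. Vegfa in young runners ran from -0.62 to -0.52. Hgf in old against young runners missed the threshold with lowered degrees of freedom (0.79, adjusted p = 0.0704) and ran from 0.62 to 0.92. On the log2(RPKM + 1) scale the described age differences of Hgf shrank to 0.67 and 0.64 by the added constant. Hgf in Y(HET) against Y(WT) missed it on log2(RPKM + 1) (-0.36), with median-of-ratios scaling (-1.15), and with the compared groups alone or lowered degrees of freedom (-1.20), and ran from -1.45 to -0.94. Gdnf in Y(KO) against Y(HET) missed it at 0.63, 0.59, 0.68 and 0.68 in the same settings, and ran from 0.53 to 0.86. The cause was not tested. Hgf has no value under the filter of 1 RPKM, which its mean of 0.940 does not pass.

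With the replicate block, Hgf in Y(HET) was -1.17 (adjusted p = 0.1) and Gdnf in Y(KO) against Y(HET) 0.75 (adjusted p = 0.0717); no other member's call changed. Same-numbered libraries had a median r of their deviations of 0.029 over 25 wheel pairs and 0.0068 over 19 Ccnd1 pairs. In the wheel cohort r ran from -0.23 to 0.3, with 7 pairs over 0.1. In the Ccnd1 cohort it ran from -0.26 to 0.13, with 1 pair over 0.1. The labels do not pair mice by number. A median near 0 cannot exclude a factor shared by same-numbered mice, the more so in values already adjusted.

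The number of genes called moved by over 1.5 times in several comparisons, and with it the shares of genes called that stand beside the members' counts. Old runners called 838 genes, 238 with lowered degrees of freedom and 351 to 923 with 1 library left out, the fewest without O(+Ex) replicate 3. Young runners called 127, then 22 with the compared groups alone, 21 with lowered degrees of freedom, 14 with the block and 5 to 205 with 1 library left out, the fewest without Y(+Ex) replicate 2. The wheel difference between ages called 1, and 1 to 5 otherwise. Y(KO) against Y(WT) called 793, then 379, 295, 1 and 98 to 938 in the same order, the fewest without Y(WT) replicate 3. Y(HET) against Y(WT) called 611, then 300, 150, 179 and 68 to 621, the fewest without Y(WT) replicate 2. Y(KO) against Y(HET) called 685, then 327, 366, 262 and 265 to 743, and 330 with median-of-ratios scaling. O(WT) against Y(WT) called 1790, 964 with lowered degrees of freedom and 873 to 1366 with 1 library left out. Of 85 calls of listed genes 0 reversed, 41 were lost in 1 or more settings and 12 in most of them. A call given above without a count of lost settings can be among these 41.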
